A study of Mus musculus with 12 samples.

Results

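The 10 genes described here mark the endothelium of blood vessels: *Pecam1*, *Cdh5*, *Cldn5*, *Kdr*, *Flt1*, *Tek*, *Tie1*, *Vwf*, *Plvap* and *Emcn*. They were picked by name, as markers of the vessels that lie under the retinal pigment epithelium (RPE), from the 28591 genes of an RNA-seq table, and all 10 are among the 17768 genes that were tested. The table covers the RPE in 6 rd6 samples, from mice homozygous for the rd6 allele of *Mfrp* (Mfrp rd6/rd6), and in 6 wild type (wt, C57BL/6J) samples, called WT below, all at 1 mo of age. No other allele or agent is named for either group. The rd6 allele is carried from the germline and so is present in every cell, and the gene it disrupts encodes a membrane protein of RPE cells. Each library was made from the RPE of both eyes of a sample, released into a stabilizing reagent from an eyecup whose anterior segment and neural retina had been taken off, so the choroid lay under the cells collected. Mice of both sexes were used in the study, and the sex of a single sample is not given in the sources used here. The study calls its RNA-seq samples independent replicates, and the tests measure the spread between them.

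The RPE rests on Bruch's membrane, and behind it lies the choriocapillaris, a dense sheet of wide capillaries that supplies the RPE and the photoreceptors. Its endothelium is fenestrated on the side that faces the RPE, and VEGF-A secreted by the RPE through its basal side is known to maintain it. Vessels inside the retina have an endothelium of another kind, sealed by tight junctions and without fenestrae. Adhesion and junction proteins (*Pecam1*, *Cdh5*, *Cldn5*), receptors for VEGF (*Kdr*, *Flt1*) and of the angiopoietin system (*Tek*, *Tie1*), and surface or secreted products of endothelial cells (*Vwf*, *Plvap*, *Emcn*) make up the 10. With the exception of *Plvap*, a component of the fenestral diaphragm that mature barrier vessels lack, these genes are shared by most vessel types, so the list marks endothelium and does not by itself tell the choriocapillaris from retinal or large choroidal vessels.

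Of the 10 genes, 6 have a window of the 250 bases before their start site in the RefSeq promoter table used here (GRCm38.p6). Of these, 4 windows are printed 5′ to 3′ on the strand of the gene, for both VEGF receptor genes, the tight junction gene and the endomucin gene. Capitals mark AGGAAG or its reverse complement CTTCCT, letters that the core of many binding sites of ETS-family factors, known regulators of endothelial genes, can take.
Flt1, chr5:147726012-147726261 (-): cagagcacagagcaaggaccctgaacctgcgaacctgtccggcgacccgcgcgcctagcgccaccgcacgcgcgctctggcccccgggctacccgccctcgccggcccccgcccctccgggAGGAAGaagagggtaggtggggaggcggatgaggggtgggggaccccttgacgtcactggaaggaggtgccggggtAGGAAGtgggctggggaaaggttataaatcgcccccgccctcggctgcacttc
Kdr, chr5:75978456-75978705 (-): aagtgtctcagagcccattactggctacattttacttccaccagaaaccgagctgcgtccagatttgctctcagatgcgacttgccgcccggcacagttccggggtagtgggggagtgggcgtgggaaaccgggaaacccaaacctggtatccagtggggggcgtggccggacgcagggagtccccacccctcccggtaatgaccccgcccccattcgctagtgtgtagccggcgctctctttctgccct
Cldn5, chr16:18776597-18776846 (+): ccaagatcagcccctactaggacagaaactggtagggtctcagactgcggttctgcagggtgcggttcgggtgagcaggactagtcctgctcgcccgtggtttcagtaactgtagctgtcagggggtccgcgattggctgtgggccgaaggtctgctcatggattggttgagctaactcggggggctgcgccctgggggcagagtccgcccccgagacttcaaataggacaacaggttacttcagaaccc
Emcn, chr3:137340828-137341077 (+): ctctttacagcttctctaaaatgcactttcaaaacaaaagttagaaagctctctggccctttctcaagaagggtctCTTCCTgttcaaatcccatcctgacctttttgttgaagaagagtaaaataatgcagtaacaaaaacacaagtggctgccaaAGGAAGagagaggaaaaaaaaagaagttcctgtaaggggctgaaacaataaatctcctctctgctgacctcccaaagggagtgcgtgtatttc
The AGGAAG letters stand at -129 and -53 relative to the start of *Flt1*, at -174 (as CTTCCT) and -93 in *Emcn*, and, in a window not printed, at -219 (as CTTCCT) in *Tie1*. They are absent from these windows of *Kdr*, *Cldn5* and *Tek*. So 3 of 6 windows hold the letters, against 29.5% of the 32851 windows of all genes in the table. The letters AGATAA or TTATCT, a form of the GATA factor motif, are in 0 of the 6 and in 9.99% of all windows. A match describes the letters and is no measured site, and other forms of these motifs were not searched.

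The 12 libraries held 28907262 to 33152725 reads in genes, and their size factors differed by at most 1.23-fold. *Mfrp* itself was lower in rd6 (20442 to 29732 normalized reads) than in WT (30132 to 45442), a log2 fold change of -0.63 ± 0.11 (SE, n = 6 and 6, q = 0.00126). All 6 rd6 libraries were under all 6 WT libraries, but the rd6 allele leaves a transcript, so this is a partial check of the labels. A principal component of all tested genes that held 49.6% of the variance put WT 4, rd6 1 and rd6 5 at its high end and did not follow genotype. The next one (21.2%) separated the genotypes. Counts were therefore repeated without those 3 libraries, a choice made after seeing the data. All 10 RPE markers measured are present, with summed levels of 951139 to 1404500 in WT and 1055510 to 1368480 in rd6. *Best1* was low (9.33 to 30.9 in WT, 15.5 to 48.7 in rd6). On average most of the sum was *Ttr* (543596 to 843724 in WT, 745664 to 998217 in rd6), so similar sums do not show similar levels of the others. *Rpe65* (131906 to 193458 in WT, 74330.5 to 131800 in rd6) and *Lrat* (72369 to 114151 in WT, 36335.5 to 56907 in rd6) did not overlap. Of these markers, 4 fell and 0 rose (q below 0.05), as did 11.6% and 11.4% of all genes.

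Endothelial transcripts were a small part of each RPE library. The 10 genes together took 0.0272 to 0.0520% of the reads in WT (median 0.0407%) and 0.0409 to 0.102% in rd6 (median 0.0700%), and each had 353 to 6742 reads in a library, far above the 3 reads below which a gene is not distinguished from 0. Levels below are normalized read counts, the reads divided by the size factor of the library. In bulk RNA, more endothelial cells in a sample and more RNA of these genes per cell cannot be told apart.

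Per kb of exon, *Plvap* was the most abundant of the 10 genes in WT at 1239 ± 281 (SD, n = 6) normalized reads per kb. *Cldn5* came next at 378 ± 109 (SD, n = 6). The 6 WT libraries of *Plvap* all lay above every WT library of *Cldn5*. *Tie1* (221 per kb), *Vwf* (193.5), *Cdh5* (164), *Emcn* (158), *Pecam1* (158), *Tek* (116), *Kdr* (110) and *Flt1* (93.0) followed, and the WT ranges of each pair of neighbours from *Cldn5* down overlapped. Within single WT libraries *Cldn5* was above *Tie1*, *Tie1* above *Vwf*, *Vwf* above *Cdh5* and *Pecam1* above *Tek* in 6 of 6, while *Emcn* and *Pecam1*, and *Tek* and *Kdr*, split 3 and 3. In rd6, *Vwf* was above *Cdh5* in 1 of 6 libraries. The length used is that of all annotated exons joined, so a gene that is read from a short isoform is understated.

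**Figure D1:**
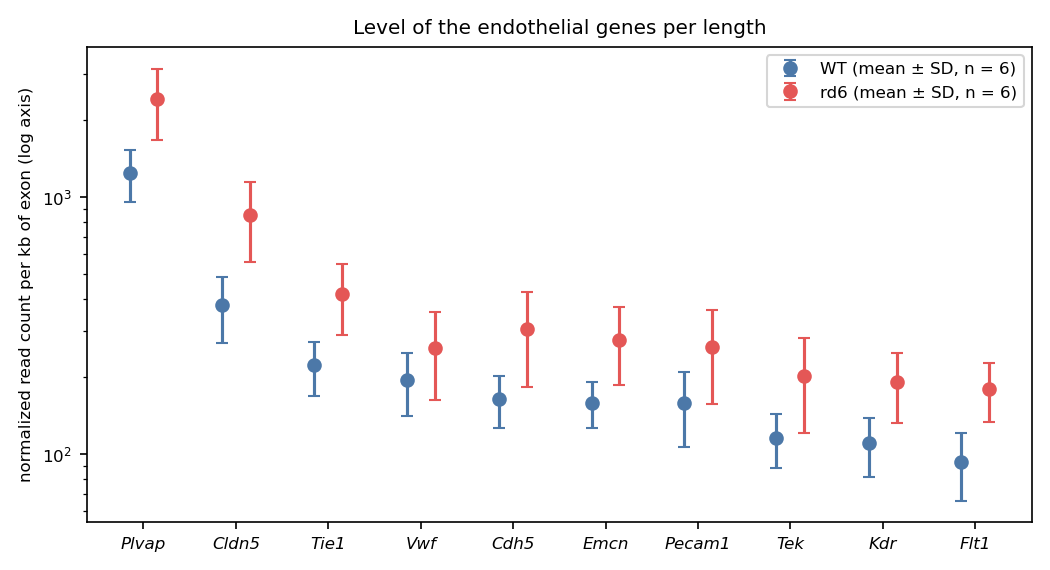
Mean ± SD (n = 6) of the normalized read count per kb of exon for each endothelial gene in WT (blue) and rd6 (red), on a log axis, ordered by the WT mean. *Plvap* is clear of the other 9 in WT, and the rd6 mean of every gene is above its WT mean.

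In rd6 RPE samples the endothelial genes were higher as a group. Of the 10, 7 rose (*Cldn5*, *Flt1*, *Plvap*, *Tie1*, *Cdh5*, *Kdr* and *Emcn*) at a false discovery rate of q below 0.05 in limma, 0 fell, and *Tek*, *Pecam1* and *Vwf* did not pass. Over all tested genes, 11.4% rose and 11.6% fell by the same rule. With a limit on size added (a log2 fold change of at least 0.81, the limit the study chose), 5 rose (*Cldn5*, *Flt1*, *Plvap*, *Tie1* and *Cdh5*) and 0 fell, against 4.69% and 2.12% of all genes. At an unadjusted p below 0.05, 9 were higher and 0 lower in limma, against 17.2% and 18.1% of all genes, and 0 were lower in edgeR and DESeq2. All 10 estimates were positive, as were 50.7% of those of all genes, and their median log2 fold change was 0.80 (1.74-fold), where the median over all genes was 0.00. No gene of the 10 had every rd6 library above every WT library, a separation that 5.77% of all tested genes showed (5.67% in the other direction), and rd6 4 exceeded the highest WT library for 0 of the 10 genes and rd6 5 for 4. Without WT 4, rd6 1 and rd6 5, 7 genes rose and the median was 0.81. The count was 5 without WT 2 and 9 without rd6 4, and DESeq2 on the recovered reads gave 9.

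**Figure D2:**
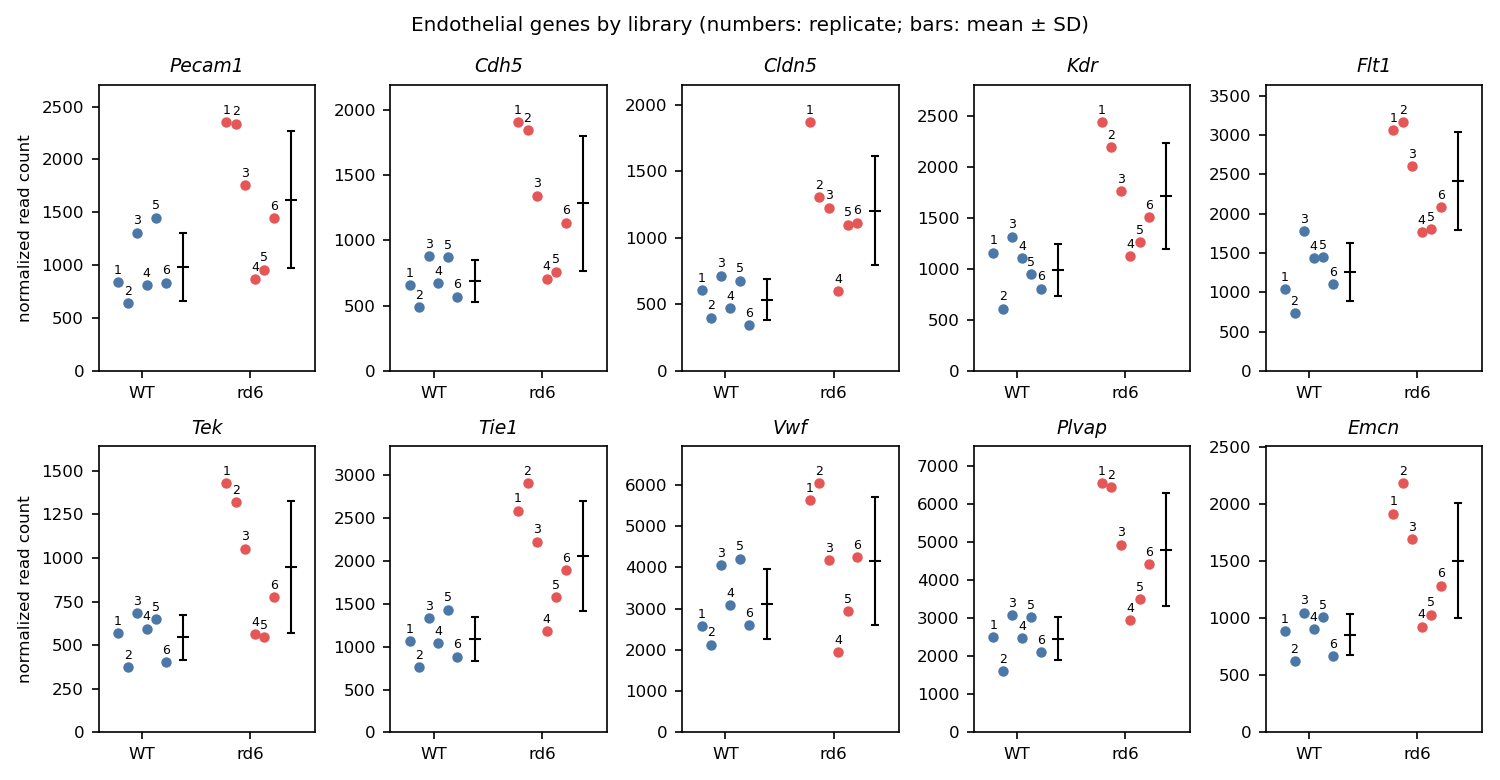
Normalized read count (linear axis from 0) of each endothelial gene in the 6 WT (blue) and 6 rd6 (red) libraries, numbered by replicate, with the mean ± SD of each group. The points of rd6 1 and rd6 2 are at the top of all panels, and rd6 4 lies within the WT range except for *Vwf*, where it lies below it.

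Adhesion and junction genes gave 2 calls among 3. *Cldn5* (ENSMUSG00000041378, chromosome 16, 18776847 to 18778262 on GRCm38, plus strand) encodes claudin-5, the main claudin of endothelial tight junctions. Its normalized read count ran from 341 to 717 in WT (median 539) and from 601 to 1871 in rd6 (median 1170). The rd6 libraries were higher except for rd6 4, which fell among the WT values, and the change was a log2 fold change of 1.14 ± 0.25 (SE, q = 0.00572), the largest of the 10. *Cdh5* (ENSMUSG00000031871, chromosome 8, 104101625 to 104144511, plus strand) encodes VE-cadherin, which holds adherens junctions together. Its level was 487 to 877 in WT (median 664) and 706 to 1907 in rd6 (median 1238). In rd6 1, 2, 3 and 6 it exceeded every WT library, and the log2 fold change was 0.82 ± 0.25 (q = 0.0339). This call is close to the limit: q was 0.0774 without WT 2 and 0.0540 to 0.0742 when WT 1, WT 6, rd6 1, rd6 2, rd6 3 or rd6 6 was left out. An antisense transcript, *Gm29682*, overlaps exons of *Cdh5*. The study counted with the standard parameters of Rsubread, which by default ignore strand. Reads in the shared stretch could therefore not be assigned by strand, and the count there is uncertain.

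*Pecam1* (ENSMUSG00000020717, chromosome 11, 106654217 to 106750628, minus strand) encodes an adhesion molecule of endothelial contacts that platelets and leukocytes also carry. It was at 643 to 1450 in WT (median 837) and 867 to 2355 in rd6 (median 1603). WT 3 and WT 5 stood above the other WT libraries and overlapped rd6 4, 5 and 6. The log2 fold change of 0.68 ± 0.28 did not pass (q = 0.101). It passed without rd6 4 (q = 0.0409) and in DESeq2 (q = 0.0328).

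Both VEGF receptor genes rose. *Flt1* (ENSMUSG00000029648, chromosome 5, 147561604 to 147726011, minus strand), a receptor that also has a soluble form able to trap VEGF, had 736 to 1776 normalized reads in WT (median 1268) and 1765 to 3170 in rd6 (median 2345). Only rd6 4, at the lower end, did not exceed the highest WT library, WT 3, and the log2 fold change was 0.96 ± 0.21 (q = 0.00620). *Kdr* (ENSMUSG00000062960, chromosome 5, 75932827 to 75978458, minus strand), the main signaling receptor for VEGF-A, had 611 to 1317 in WT (median 1027) and 1127 to 2446 in rd6 (median 1639). For this gene rd6 4 and rd6 5 lay within the WT range and the log2 fold change was 0.78 ± 0.22 (q = 0.0211). Within a library the ratio of *Flt1* to *Kdr* averaged 1.26 in WT and 1.42 in rd6. The log2 ratio ran from -0.16 to 0.61 in WT and from 0.33 to 0.65 in rd6. The difference of 0.18 did not pass an exact permutation test (two-sided p = 0.134, 0.182 adjusted over the 2 ratios tested).

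Of the angiopoietin receptor genes, *Tie1* passed and *Tek* did not. *Tie1* (ENSMUSG00000033191, chromosome 4, 118471191 to 118490061, minus strand) encodes a receptor that pairs with the product of *Tek*. Its level was 760 to 1434 in WT (median 1052) and 1182 to 2908 in rd6 (median 2060). Except for rd6 4 all rd6 libraries were above WT 5, the highest of WT, with a log2 fold change of 0.90 ± 0.22 (q = 0.00967). *Tek* (ENSMUSG00000006386, chromosome 4, 94739289 to 94874976, plus strand), the receptor for angiopoietins, was at 374 to 681 in WT (median 583) and 546 to 1427 in rd6 (median 914). In rd6 4 and rd6 5 it was below most WT libraries, and the log2 fold change of 0.73 ± 0.26 missed the limit (q = 0.0571). It passed without rd6 4 (q = 0.0296), without rd6 5 (q = 0.0250), in edgeR (q = 0.0423) and in DESeq2 (q = 0.00888).

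*Plvap*, *Emcn* and *Vwf* encode products of the endothelial surface or its granules. *Plvap* (ENSMUSG00000034845, chromosome 8, 71497765 to 71511752, minus strand), the diaphragm gene, had 1600 to 3080 normalized reads in WT (median 2485) and 2949 to 6532 in rd6 (median 4673). Only rd6 4 lay below the highest WT library, and the log2 fold change was 0.93 ± 0.21 (q = 0.00696). Exons of *Gtpbp3*, which codes for a protein and runs on the other strand, overlap those of *Plvap*, so its reads are uncertain in the same way. *Emcn* (ENSMUSG00000054690, chromosome 3, 137341067 to 137432185, plus strand), a sialomucin of capillary and venous endothelium, was at 625 to 1050 in WT (median 896) and 927 to 2181 in rd6 (median 1490). The libraries rd6 4 and rd6 5 lay among the WT values, and the log2 fold change was 0.77 ± 0.21 (q = 0.0213), with q = 0.0507 without WT 2.

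*Vwf* (ENSMUSG00000001930, chromosome 6, 125546774 to 125686679, plus strand) encodes von Willebrand factor, stored in endothelial granules and in platelets and richest in larger vessels. It showed the smallest difference of the 10. Its level was 2123 to 4207 in WT (median 2842) and 1951 to 6031 in rd6 (median 4206). The lowest of all 12 libraries was rd6 4, and rd6 1, 2 and 6 exceeded the highest WT library. The log2 fold change was 0.37 ± 0.26 (q = 0.350), and *Vwf* passed in none of the 23 alternatives (q from 0.0813 to 0.568). When a single library was left out, its log2 fold change ranged from 0.24 to 0.56. Set against the mean of the other 9 genes of its own library, *Vwf* averaged 3.30 times that mean in WT and 2.35 times in rd6. In log2 that ratio ran from 1.46 to 1.88 in WT and from 0.92 to 1.47 in rd6, and 5 of the 6 rd6 libraries were below the lowest WT library. This contrast was picked after the values were seen and was given no test. The ratio of *Plvap* to *Cldn5*, the gene of fenestrae against the gene of tight junctions, averaged 4.65 in WT and 4.03 in rd6. Its log2 difference of -0.21 did not pass the exact permutation test (two-sided p = 0.182, 0.182 adjusted over the 2 ratios). It was -0.13 without WT 6 (exact p = 0.364) and -0.03 without WT 4, rd6 1 and rd6 5 (exact p = 0.865).

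The spread between libraries of one genotype was shared by the 10 genes. Relative to WT, the geometric mean of the 10 was 2.57 in rd6 1, 2.50 in rd6 2, 1.96 in rd6 3, 1.66 in rd6 6, 1.29 in rd6 5 and 1.07 in rd6 4. In WT it ran from 0.694 in WT 2 to 1.33 in WT 3. Thus rd6 1 and rd6 2 exceeded the highest WT library for all 10 genes, rd6 3 and rd6 6 for 9, rd6 5 for 4 and rd6 4 for 0. The lowest rd6 library was rd6 4 for 9 genes, the exception being *Tek* (rd6 5), and the lowest WT library was WT 2 for 9 genes, the exception being *Cldn5* (WT 6). *Vwf* was the lowest of the 10, relative to its WT mean, in every rd6 library, and *Cldn5* was the highest in 4 of 6.

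**Figure D3:**
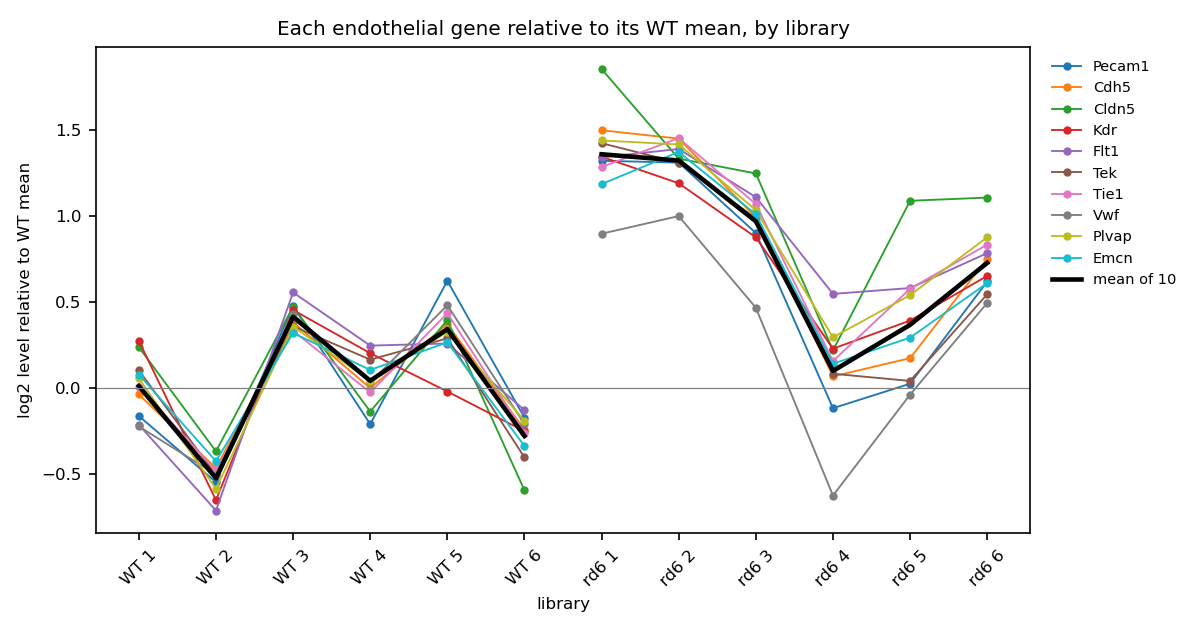
Level of each endothelial gene relative to its own WT mean (log2 axis) in the 12 libraries; thin lines join the points of 1 gene and the thick black line is the mean of the 10, and the order of libraries within a genotype has no meaning. The lines run side by side, with *Vwf* (grey) under the others in all rd6 libraries and rd6 4 close to the WT mean.

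After the mean of each genotype was subtracted, the log2 levels of the 45 pairs of these genes correlated over the 12 libraries with Pearson's r from 0.70 to 0.98 (median 0.92) and Spearman's rho from 0.71 to 0.99. Without rd6 4 and WT 2, the libraries farthest from the median, r was 0.59 to 0.99. All points come from the same 12 libraries and share the amount of endothelial RNA in each. Among genes outside the 10, those that followed the mean of the 10 most closely were *Eng* (r = 0.99), *Mmp2* (0.98), *Acvrl1* (0.98), *Mmrn2* (0.98) and *Robo4* (0.98). *Eng* and *Acvrl1* encode endothelial receptors of the TGF-beta family, *Mmrn2* an endothelial matrix protein and *Robo4* an endothelial guidance receptor. *Acvrl1* rose in rd6 by 0.82 ± 0.24 (log2, q = 0.0265) and *Eng* by 0.76 ± 0.24 (q = 0.0387). *Mmp2*, a matrix protease made mainly by stromal cells, had 260 to 519 normalized reads in WT (median 332) and 203 to 502 in rd6 (median 346), so the groups overlapped throughout, with a log2 difference of -0.07 ± 0.24 (q = 0.871).

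A list of 25 other endothelial genes, chosen for being known in endothelium, gave 14 that rose, 1 that fell and 10 that did not pass, with a median log2 fold change of 0.82. Over all tested genes, 11.4% rose and 11.6% fell. Of these 25, 20 had r above 0.8 with the mean of the 10 genes, as did 1.35% of all tested genes. *Aplnr*, the apelin receptor, had 11.4 to 31.0 normalized reads in WT (median 19.7) and 35.2 to 81.4 in rd6 (median 62.1), with no overlap and a log2 fold change of 1.57 ± 0.29 (q = 0.00190). *Myct1*, which encodes an endothelial membrane protein, rose by 1.27 ± 0.28 (q = 0.00540) with all rd6 libraries above WT, and *Ecscr*, a regulator of endothelial migration, by 1.16 ± 0.21 (q = 0.00177). *Ramp2* went the other way. This gene, for the co-receptor through which endothelium responds to adrenomedullin, had 2670 to 4444 normalized reads in WT (median 3260) and 682 to 1483 in rd6 (median 1129). All rd6 libraries were below all WT libraries, and the log2 fold change was -1.66 ± 0.19 (q = 4.2e-05). Its r with the mean of the 10 was 0.64, less than that of the genes above. The number that rose in the list depended on single libraries: it was 9 without WT 2, 21 without rd6 4 and 9 without WT 4, rd6 1 and rd6 5, while 1 fell throughout.

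**Figure D4:**
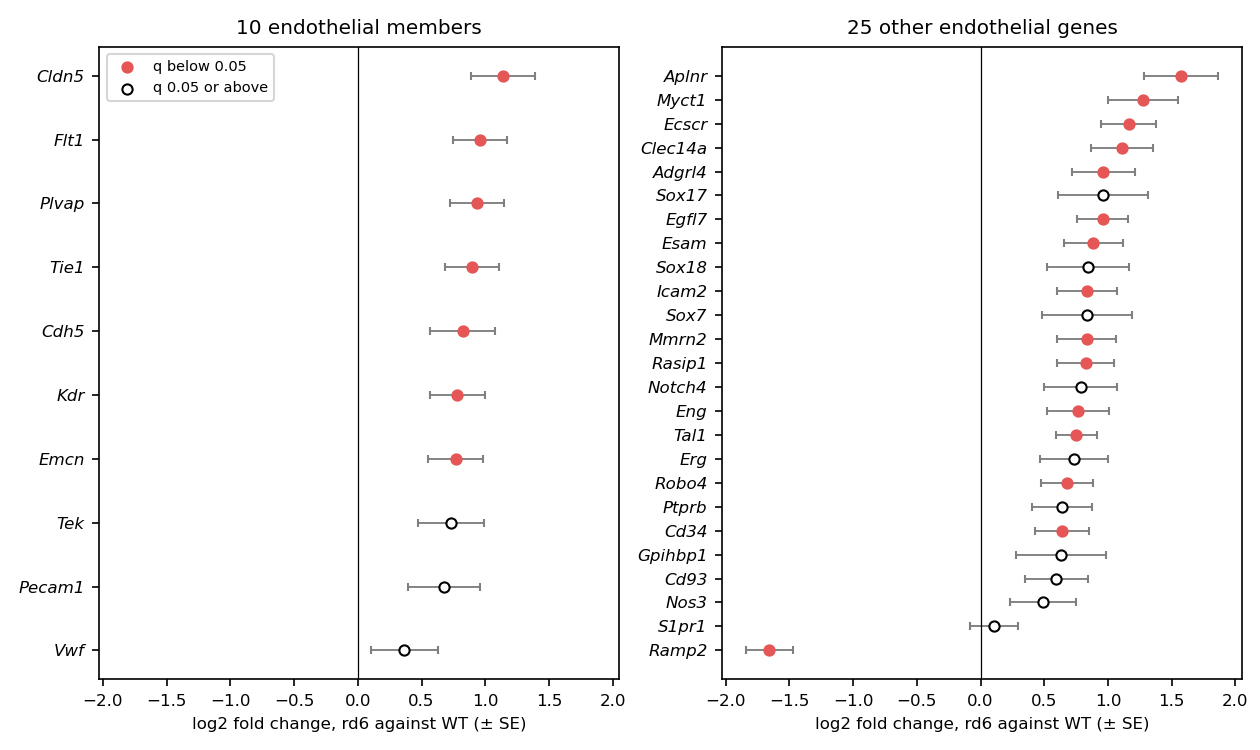
Log2 difference between rd6 and WT (points) with its SE (bars; limma, n = 6 and 6) for the 10 endothelial genes (left) and 25 other endothelial genes (right); red points passed q below 0.05. All but *Ramp2* lie to the right of 0, *Vwf* being the lowest point on the left.

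Of 12 ligands and co-receptors of the VEGF and angiopoietin system, 3 rose (5 in DESeq2), 2 fell and 7 did not pass, where 11.4% of all genes rose and 11.6% fell. *Vegfa* had 12562 to 24149 normalized reads in WT (median 16284) and 6943 to 10112 in rd6 (median 9205). The groups were separate, and *Vegfa* fell with a log2 fold change of -0.94 ± 0.14 (q = 0.000477). *Nrp2*, a co-receptor for VEGF-C and semaphorins, fell by 0.88 ± 0.11 on the log2 scale (q = 0.000137). Of those that rose, *Angpt1*, an agonist of the *Tek* receptor that mural cells make, was at 189 to 342 in WT and 369 to 570 in rd6, with no overlap, and changed by 0.80 ± 0.14 (q = 0.00137). *Flt4*, the receptor for VEGF-C, rose by 0.89 ± 0.23 (q = 0.0134), but had q = 0.0516 without WT 4, rd6 1 and rd6 5. *Vegfc* rose by 0.70 ± 0.10 (q = 0.000263), also with no overlap, and is named after its value was seen. Within genotypes over the 12 libraries, r with the mean of the 10 was -0.04 for *Vegfa*, 0.19 for *Vegfc* and 0.81 for *Nrp2*.

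Vessel types were looked at through further lists, whose counts stand against the 11.4% of all genes that rose and the 11.6% that fell. The 1 of 7 fenestrated capillary genes and 1 of 6 venous genes that rose are near that background. All 7 estimates of the fenestrated list were positive, as were 50.7% of those of all genes. At an unadjusted p below 0.05 in limma, 4 of the 7 were higher and 0 lower, and 2 of the 6 venous genes were higher and 0 lower. By that rule 17.2% of all genes were higher and 18.1% lower. Among 7 genes of fenestrated or choroidal capillaries 1 rose, *Cd300lg*, a receptor of capillary endothelium, which was at 76.4 to 187 in WT and 146 to 336 in rd6, with 4 of 6 rd6 libraries above the highest of WT and a log2 fold change of 0.87 ± 0.25 (q = 0.0229). It had q = 0.0504 without WT 2, 0.0503 without rd6 1 and 0.0521 without rd6 2. *Igfbp3*, a binding protein of insulin-like growth factors, changed by 0.71 ± 0.25 (q = 0.0571) and *Nrp1*, a VEGF-A co-receptor, by 0.52 ± 0.19 (q = 0.0654), which did not pass in limma. *Igfbp3* passed in edgeR (q = 0.0406), in DESeq2 (q = 0.00776) and without rd6 4 or rd6 5 (q = 0.0251 and 0.0233), and *Nrp1* in DESeq2 (q = 0.0247), without WT 4, rd6 4 or rd6 5 (q from 0.0327 to 0.0362) and without WT 4, rd6 1 and rd6 5 together (q = 0.0306). The number of the 7 that rose was therefore 2 in edgeR, 3 in DESeq2, and 0 to 4 when a single library was left out (0 without WT 2, rd6 1 or rd6 2, and 4 without rd6 4). *Car4*, a marker of the choriocapillaris, was low in all libraries (3.88 to 29.9 in WT, 14.4 to 44.3 in rd6). The median of the list was 0.63.

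Among 10 genes of barrier-forming endothelium, such as that of the retina, 2 rose and 2 fell, and the median was 0.13. The median rested on single libraries: it was 0.035 without rd6 1, 0.20 without rd6 2, 0.27 without rd6 4, 0.30 without WT 4 and -0.0092 without WT 4, rd6 1 and rd6 5. *Lef1*, a transcription factor of Wnt signaling, had 24.2 to 60.2 normalized reads in WT and 64.9 to 146 in rd6, all above WT (log2 fold change 1.35 ± 0.25, q = 0.00186). *Abcb1a*, an efflux transporter, rose by 1.03 ± 0.26 (q = 0.0120). *Slco1c1*, a thyroid hormone transporter, and *Slco1a4*, an organic anion transporter, fell by 0.77 ± 0.12 and 0.52 ± 0.08 on the log2 scale (q = 0.000583 and 0.000509). Both had 4863 normalized reads or more in each library, and their r with the mean of the 10 was 0.18 and -0.08. Of 8 arterial genes 2 rose, with a median of 0.80: *Gja4*, an endothelial connexin (1.23 ± 0.34, q = 0.0192), and *Dll4*, a Notch ligand (0.92 ± 0.24, q = 0.0172). Without WT 4, rd6 1 and rd6 5, *Gja4* had q = 0.0767. Of 6 venous genes 1 rose, *Ephb4*, an ephrin receptor (0.67 ± 0.17, q = 0.0114; 2 of the list rose in edgeR and in DESeq2), and *Nr2f2*, a transcription factor of venous identity, was at -0.13 ± 0.08 (q = 0.296), with a median of 0.24 (0.14 without rd6 1 and 0.44 without rd6 4). Of 5 lymphatic genes 0 passed in limma, with 1 lower at an unadjusted p below 0.05 and in DESeq2, 0 in edgeR, and a median of 0.41 (0.13 without WT 1, 0.24 without rd6 1, 0.67 without rd6 6, 0.25 without WT 4, rd6 1 and rd6 5, and -0.03 among genes at 10 or more in every library). The most abundant were *Pdpn*, podoplanin (-0.20 ± 0.08, q = 0.0761), and *Reln*, reelin (0.68 ± 0.83, q = 0.595; from 0.13 without WT 1 to 1.21 without WT 4). RPE is known to express the former.

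Other cell types of the choroid and the blood were measured in the same libraries, since their transcripts could come with those of the vessels. The counts of all these lists, here and below, stand against the 11.4% of all genes that rose and the 11.6% that fell. At an unadjusted p below 0.05 these shares were 17.2% and 18.1%. Mural cell markers, 10 of 11 tested, gave 3 that rose and 0 that fell, with a median of 0.52. They were *Des*, the intermediate filament of pericytes and muscle (434.9 to 1616 in WT, 2058 to 2631 in rd6; 1.03 ± 0.26, q = 0.0132), and *Kcnj8* (0.57 ± 0.12, q = 0.00339) and *Abcc9* (0.46 ± 0.14, q = 0.0288), which encode the parts of a pericyte potassium channel. The other 7 did not pass, and are named after their values were seen. Above 0 were *Tagln*, a smooth muscle protein (0.85 ± 0.31, q = 0.0631), *Myh11*, smooth muscle myosin (1.77 ± 0.75, q = 0.110), *Notch3*, a mural cell Notch receptor (0.62 ± 0.62, q = 0.506), and *Rgs5*, a regulator of G protein signaling (0.25 ± 0.24, q = 0.490). Below 0 were *Acta2*, smooth muscle actin (-0.29 ± 0.11, q = 0.0632, with 5 of 6 rd6 libraries below the lowest of WT), *Pdgfrb*, the growth factor receptor of pericytes (-0.30 ± 0.12, q = 0.0950), and *Cspg4*, a pericyte proteoglycan (-0.23 ± 0.13, q = 0.216). *Higd1b*, a defining pericyte marker, had 0 to 3.09 normalized reads in all libraries, about the value of 3 reads. The summed level of the list was 11240 to 14081 in WT and 12457 to 14644 in rd6, and its r with the mean of the 10 was 0.37. Without WT 4, rd6 1 and rd6 5, *Des* had q = 0.0542 and *Abcc9* q = 0.0726, and *Abcc9* had q of 0.0507 to 0.0658 when WT 1, WT 2, WT 6, rd6 1 or rd6 2 was left out. At an unadjusted p below 0.05 the list gave 5 higher and 2 lower, and DESeq2 gave 4 higher and 0 lower.

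The summed level of fibroblast markers had r = 0.81 with the mean of the 10 within genotypes, while by gene r ran from 0.097 to 0.89, with 4 of 8 above 0.8. The sum was 16546 to 26590 in WT and 11733 to 24452 in rd6. Of 8, 0 rose (0 in edgeR and in DESeq2) and 1 fell, near the 11.4% and 11.6% of all genes, and at an unadjusted p below 0.05 there were 0 higher and 3 lower. The one that fell was *Pdgfra*, a growth factor receptor of stromal cells (-0.88 ± 0.22, q = 0.0123), and the median was -0.20. It was -0.33 without rd6 1 or rd6 2, -0.31 without rd6 3, -0.13 without WT 5, -0.12 without rd6 4 and -0.04 without rd6 5. *Dcn*, the proteoglycan decorin, was at -0.63 ± 0.23 (q = 0.0697) and *Ogn*, osteoglycin, at -0.12 ± 0.10 (q = 0.427). When a library was left out, *Ogn* ranged from -0.18 to -0.047. Schwann cell and glial sheath markers gave 0 higher and 3 lower of 6 (among them *Sox10* at -0.64 ± 0.10 and *Mbp* at -0.61 ± 0.18 on the log2 scale), with summed levels of 8133 to 10663 in WT and 5568 to 6875 in rd6, and melanocytes and RPE can express some of them. *Mbp* did not pass without WT 1, rd6 1, rd6 2, rd6 3 or rd6 6 (q from 0.0535 to 0.0670), nor without WT 4, rd6 1 and rd6 5 (q = 0.0834).

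Of 6 platelet markers 2 were tested (*Itga2b* 0.13 ± 0.35, q = 0.816; *Pf4* 0.57 ± 0.43, q = 0.371) and 0 passed in limma, at an unadjusted p below 0.05, in edgeR or in DESeq2, and *Gp9*, *Gp1ba* and *Treml1* were at 0 in some libraries of both genotypes. Their sum was 35.8 to 182 in WT and 62.1 to 123 in rd6. Red cell markers (5 tested, median 0.76, 0 passing in limma, at an unadjusted p below 0.05, in edgeR or in DESeq2) summed to 7220 to 50729 in WT and 15155 to 31708 in rd6, with WT 1 highest for *Hba-a1* and *Hbb-bs*. Without WT 1 all 5 rose, with a median of 1.11 (q from 0.00288 to 0.00930), *Hba-a1* by 1.21 and *Hbb-bs* by 1.10 on the log2 scale, and 6 of the 10 endothelial genes rose, with a median of 0.83. Over the 12 libraries the red cell sum had r = 0.32 with the mean of the 10. Microglia and macrophage markers gave 9 higher of 10, with a median of 2.63 and *P2ry12* at 4.23 ± 0.25. Their sum was 13944 to 19524 in WT and 20835 to 27769 in rd6, and most of it was *Csf1r*, a macrophage growth factor receptor and the one that did not pass (12921 to 18698 in WT, 16200 to 20851 in rd6; 0.12 ± 0.10, q = 0.385). By gene, r with the mean of the 10 ran from -0.66 to -0.03. Rod markers gave 0 higher and 3 lower of 10, or 9 lower without rd6 5 (sums of 24834 to 61611 in WT and 11822 to 56073 in rd6), and RPE markers 0 higher and 4 lower of 10. The part of these cell types in the endothelial result was not tested.

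**Figure D5:**
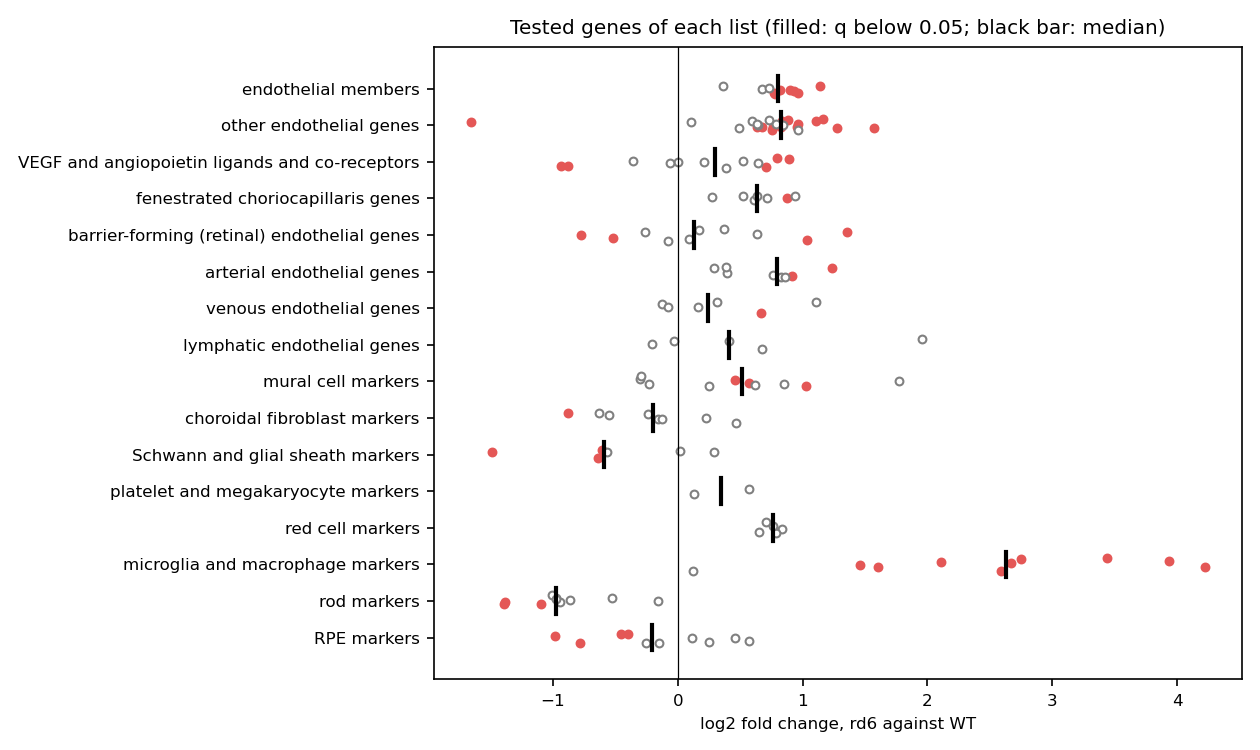
Log2 fold change of rd6 against WT for every tested gene of each list (filled red points passed q below 0.05 in limma, open points did not; black bars are list medians). The endothelial and other endothelial genes have medians of 0.80 and 0.82, the fibroblast list -0.20 and the microglia list 2.63.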

How the data were processed

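RPE RNA of 6 WT and 6 rd6 samples was sequenced as stranded total-RNA libraries. According to the paper, reads were aligned to mm10 and counted by Rsubread (standard parameters), then normalized and tested with DESeq2. Versions are not given in the sources used here. The authors deposited, per gene and library, a signal: the read count divided by the size factor of the library. Further deposited columns hold a log2 fold change with an error, a Wald score, a p-value, raw and adjusted, and a mean over all libraries. They are the authors' own comparison and were not used. Of 28596 entries, 5 repeats were dropped. All values were whole multiples of the value of 1 read (tolerance 0.01 reads), so reads were recovered (100%). No libraries were copies of each other.

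The main test was limma 3.58.1 (R 4.3.3) with a mean-variance trend on log2(value + 1), genotype being the only term, for 17768 genes whose mean reached 10, with Benjamini-Hochberg adjusted p-values (q) over all of them. Log2 fold changes are on that scale. Recovered reads were tested with edgeR 4.0.16 and DESeq2 1.42.0 as alternatives, and the tests were checked on simulated data. Ratios were compared with exact permutation tests (numpy 2.4.6), and Spearman's rho was computed with scipy 1.17.1. Coordinates are from GENCODE M21 (GRCm38), which has 28510 of the 28591 identifiers. Counting floors cover counting error only, since PCR copies of a molecule are not independent.

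The 10 genes and all lists were chosen with earlier results of these data known. Named are the 10, up to 4 genes of each list with the largest change among those that passed, up to 2 with the highest mean where fewer than 2 passed, the 5 genes most like the 10, *Mfrp* and *Actb* (-0.06 ± 0.10, q = 0.684). Outside this rule, *Vegfc*, *Car4*, *Csf1r*, *Ttr*, *Best1*, *Gp9*, *Gp1ba* and *Treml1* were named after their values were seen. So were the mural markers that did not pass or were not tested. *Gm29682* and *Gtpbp3* are named because they overlap members. Some genes that this rule picks are not reported here. Alternatives were the pseudocount, the filter on low values, rescaling, the test, a replicate block and leaving out libraries.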

Additional observations from a re-analysis of the deposited data

Results flagged for a closer look

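None of the 10 endothelial genes and neither ratio had a library that stood apart from the other 5 of its genotype by Dixon's test. Of 110 sets of 6 values examined (the named genes and ratios in each genotype), 11 had such a library, here meaning that over 0.625 of the range was the gap to the nearest value, and about 1 in 20 sets is flagged by chance. Normalized read counts are given.

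WT 4 was highest for *Reln* at 4913 (next 1309) and for *Itga2b* at 116 (next 55.7), and lowest for *Pdpn* at 15336 (next 19429). WT 1 was highest for the hemoglobin genes *Hba-a1* at 20136 (next 6103) and *Hbb-bs* at 15124 (next 5390). WT 6 was highest for the macrophage genes *Tyrobp* at 253 (next 141) and *Aif1* at 108 (next 28.2). The library rd6 5 was highest for the rod genes *Prph2* at 3482 (next 1155) and *Nrl* at 1915 (next 540), and lowest for *Pdpn* at 15312 (next 16921). *Slco1c1* was highest in rd6 6 at 7772 (next 5947). Of these libraries, rd6 5 lay near the WT range for the endothelial genes (1.29 times the WT level), and the part of rod RNA in that was not tested.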

How the results depend on the processing

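Over 23 alternatives, 5 to 9 of the 10 endothelial genes rose and 0 fell, and their median log2 fold change stayed between 0.69 and 0.93. *Cldn5*, *Kdr*, *Flt1*, *Tie1* and *Plvap* passed in all 23, and *Vwf* in 0. Of the 25 other endothelial genes, 14 rose in the main test, 9 without WT 4, rd6 1 and rd6 5 (chosen after seeing the data), and 9 to 21 when a single library was left out, 9 being without WT 2. Without rd6 4, 4 of the 8 arterial genes rose in place of 2, and without rd6 4 or rd6 5, 2 venous genes in place of 1 and 5 VEGF and angiopoietin genes in place of 3. Of the mural markers, 5 rose in place of 3 without WT 4, and 1 fell in place of 0 without WT 4 or rd6 4. Of the fibroblast markers, 3 fell without rd6 1 and 2 without rd6 2, in place of 1. Rod markers that fell numbered 6 without WT 1, 7 without WT 5 and 9 without rd6 5, in place of 3. Without WT 4, 1 lymphatic gene fell and 1 RPE marker rose, in place of 0. The log2 ratio of *Flt1* to *Kdr* differed by 0.081 to 0.23 (rd6 minus WT) when a library was left out. Without WT 5 the difference was 0.23, with an exact permutation p of 0.0281 that is not adjusted over the 2 ratios. For *Plvap* to *Cldn5* the difference ranged from -0.27 to -0.13 when a library was left out, and was -0.03 without WT 4, rd6 1 and rd6 5. The change of *Itga2b*, a platelet gene that never passed, ranged from -0.070 (without WT 6) to 0.40 when a library was left out. For *Pf4* that range was 0.26 to 0.84. The cause was not tested in any of these.

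Samples with the same replicate number did not deviate together (r from -0.74 to 0.31 in 6 pairs, 1 of them over 0.1), so the numbers were not taken to pair samples. With a replicate block, 5 of the 10 and 7 of the 25 other endothelial genes rose, and *Cdh5* (q = 0.0879), *Emcn* (q = 0.0618), *Cd300lg* (q = 0.0786, which left 0 of the 7 fenestrated capillary genes), *Ephb4* (q = 0.0589), *Abcc9* (q = 0.0845) and *Mbp* (q = 0.0515) no longer passed. Of the rod and RPE markers, 0 and 2 were lower with the block. TMM and upper-quartile rescaling moved the median over all genes by less than 0.03 in log2. Among all genes 2024 rose and 2062 fell, a split of 49.5% higher, 55.6% under TMM and 44.3% under upper-quartile rescaling. All 10 genes had 353 reads or more in each library, while *Car4*, *Higd1b* and most platelet genes were too low to compare well.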
